A study of Mus musculus with 92 samples.

Results

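Gfi1 transcript was present in some and absent in others of the 15 mouse bone marrow cells that the authors' annotation calls Myelo-2. The sides were selected on the deposited Gfi1 value alone, at 1 TPM, a measure of transcript abundance normalised for transcript length and for the total of the cell. Of the 15 cells, 6 lay above it and are called Gfi1-positive here, and 9 lay at or below it and are called Gfi1-negative. These 15 are all the Myelo-2 cells among the 92 cells of the series, and all lie in 1 of its 2 sort gates, CD11b+ GMP-P, which holds 47 cells. Each cell, in both gates, came from C57BL/6 mice with the genotype Gfi1-R412X/R412X, so any Gfi1 transcript counted is from the mutant allele, and there were 0 wild type cells. Marrow was enriched on beads for CD117 (the product of Kit), cells were sorted and captured singly on a Fluidigm C1 chip, and SMARTer cDNA and Nextera XT libraries were read as 150 bp pairs. The labels name no animal, sex, age or number of mice, so the 15 cells are 1 set without replicates and no test between the sides was made. Its own difference is therefore a description.

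GFI1 is a zinc finger protein that represses transcription. It binds DNA at an AATC core and recruits the demethylase KDM1A with its partner RCOR1 and histone deacetylases through its N-terminal SNAG domain. In granulocyte development it is known for holding down genes of the monocyte path, and human GFI1 mutations cause severe congenital neutropenia. Neutrophils build their granules in order: primary granule genes such as Mpo and Elane come first, then secondary granule genes such as Ltf, Camp and Ngp, and gelatinase granule genes such as Mmp9 come last.

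The promoters of Gfi1, which defines the sides, and Rpn2, which differed most between them, are shown with the AATC core and its reverse complement GATT in capitals. They are RefSeq sequences of build GRCm38.p6, read 5′ to 3′ on the gene's strand, from 250 bases before to 50 after each annotated start. Gfi1 lies on the minus strand, at chr5:107725756-107726055 for start site 1 and chr5:107724294-107724593 for start site 2. Rpn2 lies on the plus strand, at chr2:157278848-157279147 and chr2:157279176-157279475.
Gfi1 start site 1: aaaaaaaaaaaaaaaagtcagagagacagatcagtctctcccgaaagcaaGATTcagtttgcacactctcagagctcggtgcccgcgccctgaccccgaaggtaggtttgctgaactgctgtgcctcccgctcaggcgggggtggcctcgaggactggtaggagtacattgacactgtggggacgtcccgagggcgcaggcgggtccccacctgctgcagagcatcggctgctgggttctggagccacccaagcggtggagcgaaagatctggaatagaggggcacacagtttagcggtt
Gfi1 start site 2: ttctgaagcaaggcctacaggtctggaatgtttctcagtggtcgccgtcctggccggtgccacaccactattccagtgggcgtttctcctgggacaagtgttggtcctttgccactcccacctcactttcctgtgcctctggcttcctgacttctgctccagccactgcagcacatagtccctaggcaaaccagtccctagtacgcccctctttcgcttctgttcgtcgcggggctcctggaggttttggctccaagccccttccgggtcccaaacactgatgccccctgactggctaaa
Rpn2 start site 1: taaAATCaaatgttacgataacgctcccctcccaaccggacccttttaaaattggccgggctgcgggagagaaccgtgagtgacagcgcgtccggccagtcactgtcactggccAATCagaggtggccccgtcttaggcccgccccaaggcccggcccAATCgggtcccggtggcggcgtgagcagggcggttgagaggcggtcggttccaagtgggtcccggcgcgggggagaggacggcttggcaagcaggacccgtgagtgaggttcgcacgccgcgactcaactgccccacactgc
Rpn2 start site 2: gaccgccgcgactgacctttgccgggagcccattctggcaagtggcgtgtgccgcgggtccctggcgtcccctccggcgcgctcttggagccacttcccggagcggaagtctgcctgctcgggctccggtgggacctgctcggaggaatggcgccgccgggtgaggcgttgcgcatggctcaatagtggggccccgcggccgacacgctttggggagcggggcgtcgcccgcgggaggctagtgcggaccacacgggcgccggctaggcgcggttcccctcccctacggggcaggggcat
Start site 1 of Gfi1 held 1 match to the core and start site 2 held 0. The Rpn2 promoters held 3 and 0. The core is short, and 73.11% of the 32851 RefSeq mouse promoters hold it on at least 1 strand, with a median of 1 match. The longer AAATCA, which overlaps the core, occurs in 14% of promoters and stands once in start site 1 of Rpn2. The still longer TAAATCAC occurs in 0.578% of promoters and in none of these 4 windows.

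Gfi1 in the positive cells was 75.8 TPM in cell 52, 9.04 in cell 64, 78.9 in cell 75, 110 in cell 77, 81.2 in cell 81 and 585 in cell 91. The negative cells were at 0 apart from cell 61, at 0.17 TPM. The cells nearest the threshold were therefore cell 64 inside it and cell 61 outside it, and no cell lay between 0.17 and 9.04 TPM. On the log2(TPM + 1) scale the means were 6.38 ± 1.87 (SD of 6 cells) and 0.03 ± 0.08 (SD of 9 cells). Other genes matched on their mean had counts of cells above 1 TPM near that of Gfi1. Matching on the mean of the same 15 cells largely gives such a count, so it says little about Gfi1. No gap between cells was measured for other genes. Among 356 other genes whose mean over the 15 cells lay within 0.25 log2 units of that of Gfi1 (2.57), the median gene was above 1 TPM in 7 cells, with quartiles of 6 and 8, and Gfi1 was above it in 6. Of all values in the 15 cells 88.2% were 0, and a 0 can be a transcript that was present and missed.

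Gfi1-positive cells had more genes detected. Their counts of genes with TPM above 0 were 2921 at the lowest, 3046.5 at the median and 3257 at the highest, against 1993, 2830 and 3089 in the negative cells. The sides overlapped, since 3 of the 9 negative cells reached the lowest positive cell and 4 of the 6 positive cells lay at or below the highest negative cell. Counting only genes above 10 TPM gave medians of 1695.5 and 1416. Across the 15 cells the Spearman correlation of Gfi1 with genes detected was 0.58, a description of cells that share a capture. Cells 59 and 96, both Gfi1-negative, had the fewest genes, at 1993 and 2082. TPM keeps no read depth, so the part of detection in each difference below was not tested.

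**Figure D1:**
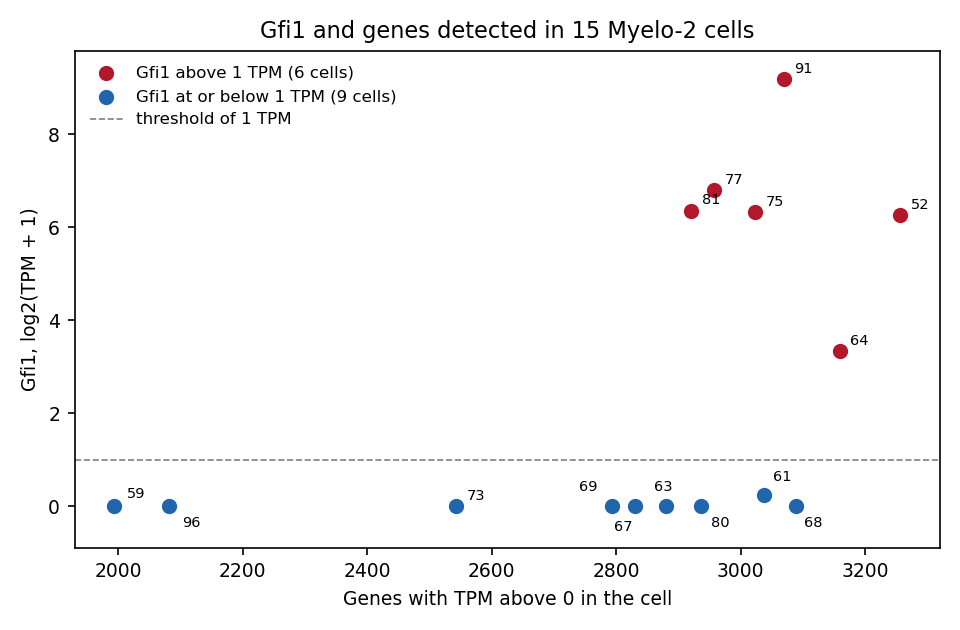
Each point is 1 Myelo-2 cell, with genes detected on the x axis and Gfi1 as log2(TPM + 1) on the y axis; numbers are cell numbers and the dashed line is the threshold of 1 TPM. The 6 Gfi1-positive cells lie between 2921 and 3257 genes, and cells 59 and 96 lie apart at 1993 and 2082.

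Among the CD11b+ GMP-P states with at least 3 cells, the share of Myelo-2 cells with Gfi1 lay below those of the Gran-1, Gran-2 and Myelo-1 cells and above that of the Myelo-4 cells. Gfi1 was above 1 TPM in 4 of 4 Gran-1 cells, 17 of 20 Gran-2 cells (85%, exact interval 62.1% to 96.8%), 3 of 3 Myelo-1 cells, 6 of 15 Myelo-2 cells (40%, 16.3% to 67.7%) and 0 of 3 Myelo-4 cells (upper bound 70.8%). The gate also held 1 Mono cell with Gfi1 at 186 TPM and 1 Multi-Lin cell at 0. The intervals of Gran-2 and Myelo-2 overlap, and those of the small states are wide. They cover counting error among cells that share a capture, and a difference between states was not tested. Median genes detected were 5263.5 in Gran-1, 4595 in Gran-2, 4428 in Myelo-1, 2936 in Myelo-2 and 2192 in Myelo-4, and the Multi-Lin cell without Gfi1 had 3828. In the GMP gate 15 of 24 Mono cells were above 1 TPM (62.5%, 40.6% to 81.2%). Myelo-4 cells had at most 0.18 TPM of Gfi1. How the states were called is not stated, and Gfi1 may have been among the genes used.

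**Figure D2:**
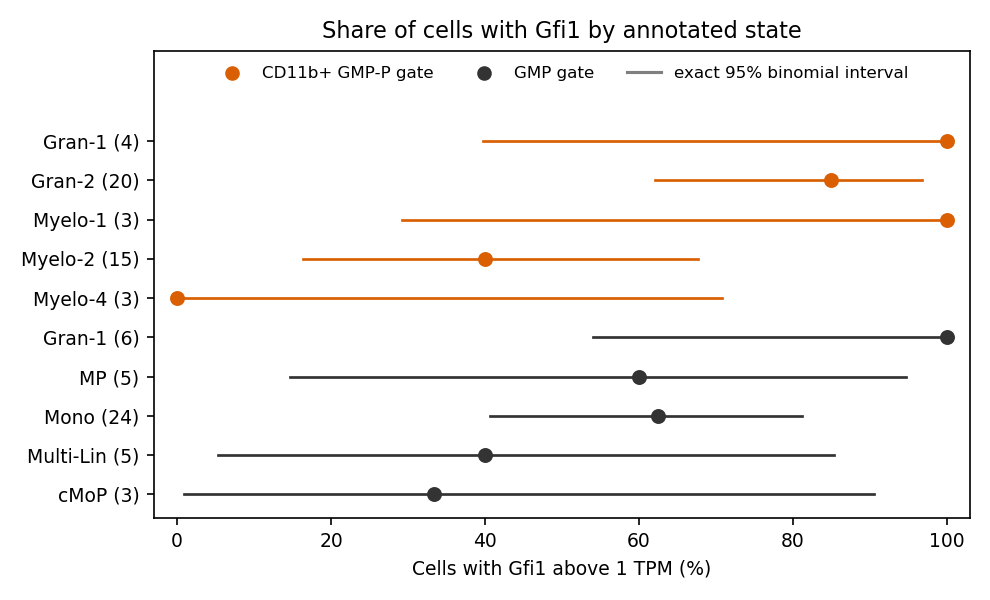
Share of cells with Gfi1 above 1 TPM, in percent, for each annotated state with at least 3 cells; the number of cells is in parentheses and lines are exact 95% binomial intervals. Myelo-2 stands at 40%, with Gran-2 at 85% and Myelo-4 at 0%.

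Of the late granule markers, which the Myelo-2 name was checked against, Camp and S100a8 were high on both sides. The antimicrobial peptide gene Camp was at 54584, 67700 and 84818 TPM (lowest, median and highest) in positive cells and at 50196, 67885 and 108782 TPM in negative cells. The calprotectin gene S100a8 was at 106907, 135026 and 157996 TPM against 122137, 148547 and 249455 TPM. Granule genes together took 43.1% to 62.2% of all TPM in positive cells and 51.1% to 66.2% in negative cells. Ctsg, a primary granule protease, reached no more than 3.87 TPM in any of the 15 cells. Of the other primary granule markers checked, Elane reached 7821 TPM in positive and 2973 TPM in negative cells, and Prtn3 1683 and 1971 TPM. Mpo reached 2774 and 6.83 TPM. Among late markers Ltf was as low as 618 TPM in positive and 49.6 TPM in negative cells, and Mmp8 432 and 31.6 TPM. Itgam was as low as 20.6 and 6.13 TPM. Cells 52 and 80, with the most Elane and the least Ltf of their sides, went partly against the name. Kit, whose product was used for enrichment, was at 0 in all 6 positive cells and at most 5.0 TPM in the negative cells. Neither side held the defining transcripts of another cell type in bulk. Irf8, Csf1r, Ccr2 and Cx3cr1 were at 0 in all 15 cells, as were 10 of 16 monocyte markers in all. Klf4, also on that list, was at 0 in all 6 positive cells. It was above 1 TPM in 2 negative cells, reaching 265 TPM. Emb of the same list went the other way, at 1.56 to 1129 TPM in positive and 0 to 417 TPM in negative cells. The summed monocyte list, 392 to 4362 TPM in positive and 112 to 4120 TPM in negative cells, was mostly Ly6c2, which neutrophil precursors also express. At 0 throughout were 12 of 15 dendritic, 9 of 18 stem and progenitor, 8 of 10 megakaryocyte, 12 of 14 erythroid, 10 of 11 basophil and mast cell, 7 of 8 eosinophil, 9 of 11 B cell and 8 of 12 T and NK cell markers. Their summed levels overlapped between the sides. The dendritic list summed to at most 3.18 TPM in positive and 1.07 TPM in negative cells, and the basophil and mast cell list to 0 and at most 0.41 TPM. The erythroid list reached 83.6 and 1.34 TPM, and the B cell list 64.8 and 0.1 TPM. Stem and progenitor genes summed to 28.4 to 397 TPM against 1.74 to 216 TPM. Of that list Hlf was above 1 TPM in 2 positive cells, reaching 321 TPM, and at 0 in all 9 negative cells. Lmo2 reached 378 TPM in cell 52 and 33 TPM in negative cells. Egfl7 was at 0 in all 6 positive cells and reached 80.6 TPM in 1 negative cell. The megakaryocyte list (39.1 to 468 against 0 to 233 TPM) held Fli1, which myeloid cells also express, and Gp1bb. Gp1bb was at 0 in all 6 positive cells and above 1 TPM in 4 negative cells, reaching 105 TPM. The highest sums of the T and NK cell list (8.96 to 1552 against 0 to 807 TPM) were nearly all Nkg7, which myeloid cells also express. The only eosinophil marker above 0 was Ear2, a ribonuclease gene, at 0, 11.5 and 283 TPM in positive and 0, 38.5 and 2079 TPM in negative cells, with the opposite difference in cells matched on genes detected.

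Genes were compared where at least 5 cells, on either side, had a value above 0, which left 3544 genes. Of these, 1110 (31.3%) had a mean log2(TPM + 1) at least 2-fold higher in positive cells and 482 (13.6%) at least 2-fold lower, so that 44.9% lay at least 2-fold apart. The median difference over all genes was 0.31, and scaling the cells to equal medians of the genes seen in every cell brought it to 0.06. That scaling moved the share of higher genes among the 2-fold genes from 69.7% to 58.1%, and matching cells on genes detected moved it to 54.3%. The 283 genes above 0 in all 15 cells showed a smaller imbalance, with 67 higher, 32 lower and a median of 0.21. Only 2 genes (0.0564%) were higher with no overlap between the sides, and 0 genes (0%) were lower with no overlap.

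Those 2 genes were Rpn2 and Agap2. Rpn2 encodes ribophorin II, a subunit of the complex that attaches N-linked sugars to proteins entering the endoplasmic reticulum. It stood at 252 TPM in cell 52, 448 in cell 64, 1440 in cell 75, 633 in cell 77, 568 in cell 81 and 436 in cell 91. In negative cells it was at 0 in cells 59 and 73, below 1 TPM in cells 63, 67, 80 and 96, at 14.3 TPM in cell 68, 46.4 in cell 61 and 120 in cell 69. Every positive cell was thus above every negative cell, with a log2 difference of 7.07 that stayed between 4.89 and 8.58 over the alternatives tried. With cells scaled to equal medians the ranges overlapped, 131 to 856 against 0 to 177 scaled TPM. The sides also overlapped for Rpn2 at Gfi1 thresholds of 0 and 10 TPM. Agap2, a GTPase-activating protein for ARF proteins, was near 0 throughout, at 0.09 to 3.16 TPM against 0 to 0.08 TPM, so its separation rests on very low values.

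The same separation by Gfi1 was not seen for Rpn2 in cells the choice did not use. Gran-2 cells had Rpn2 means of 7.37 with Gfi1 above 1 TPM (17 cells) and 7.97 with Gfi1 at or below it (3 cells), a difference of -0.60 on the log2 scale. GMP Mono cells had 7.95 (15 cells) and 8.46 (9 cells), a difference of -0.51. Gfi1 was above 0 in all 20 Gran-2 cells and in 18 of 24 Mono cells, so the lower sides there were not all free of transcript. Myelo-4 cells, with at most 0.18 TPM of Gfi1, had Rpn2 at 0 in all 3 cells. Of the 12 genes highest in Gfi1-positive Myelo-2 cells, 6 had the same sign in Gran-2, of which 1 was at least 2-fold apart, and 3 were at least 2-fold apart in the opposite direction. In Mono 7 of the 12 had the same sign, 4 of them at least 2-fold. The 1 gene in Gran-2 was Hat1, the acetyltransferase of newly made histone H4, at 4.50 there and 4.81 in Myelo-2. For scale, 33.4% of 5868 genes in Gran-2 and 25.3% of 7068 genes in Mono were at least 2-fold higher in cells with Gfi1 above 1 TPM, and 18.5% and 8.86% lower.

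Next in the ranking, Rpl3, a protein of the large ribosomal subunit, was at 105, 1180 and 1642 TPM in positive cells and 0, 0.82 and 948 TPM in negative cells, a log2 difference of 6.59. It was above 1 TPM in all 6 positive cells and in 3 negative cells, and reads of ribosomal protein genes may be shared with pseudogenes. Gatad1, a zinc finger protein of chromatin, was at 151, 279 and 514 TPM in positive cells against 0, 0.34 and 277 TPM, a difference of 5.03. Both genes were present in every positive cell and missing or near 0 in most negative cells. Rab28 (a small GTPase of the RAB family) was 5.97 log2 units higher and Rab31 (a RAB protein of Golgi and endosome traffic) 4.70. M6pr, the cation-dependent mannose 6-phosphate receptor that sorts lysosomal enzymes, was 4.66 higher, and Coro7, a coronin of the Golgi, 4.67. Acot9, a mitochondrial acyl-CoA thioesterase, was 5.49 higher, and Cox7a2l, a factor for respiratory supercomplexes, 5.08. Hcst, the DAP10 signalling adaptor, was 5.22 higher and Nptn, the membrane protein neuroplastin, 4.70. Each of these 8 genes was above 0 in 5 or 6 positive cells and in 2 to 4 negative cells. All 12 highest genes kept at least a 2-fold difference in the same direction under each alternative that gave them a value. They were chosen as the largest differences in these cells, which the alternatives reuse, so this was largely given by the choice.

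At the other end of the ranking, Ndufs7, a subunit of respiratory complex I, was at 0, 0 and 84.6 TPM in positive cells and 0, 262 and 1377 TPM in negative cells, a log2 difference of -5.02, and was above 0 in 1 of 6 and 7 of 9 cells. Uqcrh, the hinge subunit of complex III, was at -4.25. Higd2a, an assembly factor of respiratory complexes, was listed at 0 in all 6 positive cells and at 0, 7.1 and 1497 TPM in negative cells. Nudt3, a phosphatase of inositol pyrophosphates, was likewise at 0 in each positive cell, against 0, 3.62 and 466 TPM. Sec61b, a subunit of the channel through which new proteins enter the endoplasmic reticulum, was at 0, 25.8 and 538 TPM against 47.6, 382 and 1531 TPM, a difference of -3.67. Rpn2, of the same compartment, went the other way. Rplp1, an acidic protein of the ribosomal stalk, was at 0, 79.1 and 440 TPM against 42.1, 390 and 3264 TPM, a difference of -3.80. Among the lowest were also Rpa3, a subunit of the single-strand DNA binding protein RPA (-4.04), Spag7 (-3.70) and Ubl3, a membrane-anchored ubiquitin-like protein (-3.67). Of the 12 lowest genes 10 could be compared in Gran-2, where 3 had the same sign, and 10 in Mono, where 4 did.

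**Figure D3:**
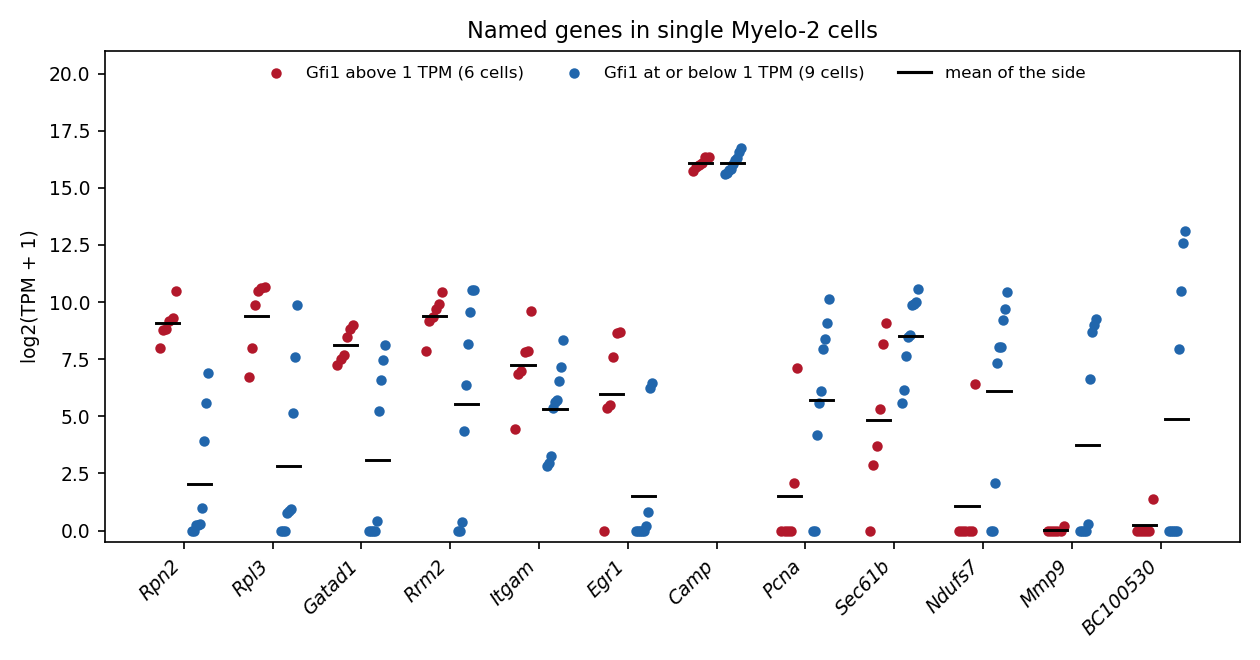
Expression of 12 named genes as log2(TPM + 1) in each Myelo-2 cell, Gfi1-positive in red and Gfi1-negative in blue, with black lines for the mean of each side. Rpn2 separates the sides, Camp lies at the same level on both, and most positive cells are at 0 for Pcna, Ndufs7, Mmp9 and BC100530. Of the 9 negative cells 4 are above 1 TPM for Mmp9 and 4 for BC100530.

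Mmp9, the gelatinase of the last granules to form, was at or below 0.14 TPM in every positive cell, while negative cells 59, 73, 80 and 96 had 610, 411, 517 and 97.8 TPM and the remaining 5 had at most 0.22. Retnlg, a resistin-like protein of neutrophils, was at 0 in 5 positive cells and 85.4 TPM in cell 91. Among negative cells Retnlg was at 2084 TPM in cell 73, 1243 in cell 80, 795 in cell 67 and 383 in cell 96, and at or below 1.39 in the rest. BC100530, of the stefin A family of protease inhibitors, was at 8811 TPM in cell 73, 6201 in cell 96, 1413 in cell 67 and 243 in cell 68, at 1.61 TPM in cell 81 and at 0 elsewhere. Its reads may be shared with near-identical stefin genes. Different negative cells thus carried these genes, and cells 73 and 96 carried all of them. The log2 differences were -3.73 for Mmp9, -3.56 for Retnlg and -4.67 for BC100530. The 3 Myelo-4 cells had mean log2 levels of 9.91 for Mmp9 and 12.71 for Retnlg, and the 20 Gran-2 cells 0.02 and 0.39; BC100530 was at 0 in Myelo-4. Fpr2, a receptor for formylated bacterial peptides, was above 1 TPM in 1 of 6 positive and 4 of 9 negative cells, a difference of -3.01.

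As a list, 14 of the 26 mature neutrophil genes in the table could be compared, with 2 at least 2-fold higher (against 31.3% of all genes), 5 lower (against 13.6%) and a median of -0.65. That median was negative under each alternative tried, from -1.02 to -0.37, though the alternatives reuse the same cells. In cells matched on genes detected 3 members were higher and 3 lower. The 2 higher members were Csf3r, the receptor for granulocyte colony-stimulating factor, at 0.14, 24.4 and 150 TPM against 0, 0.4 and 52.6 TPM, and Selplg, the selectin ligand PSGL-1, which was 2.22 log2 units higher. Fpr1, another formyl peptide receptor, was at -1.45 and the chemokine receptor gene Cxcr2 at -0.11. Cells 59 and 96 are the negative cells with the fewest genes and with Mki67 and Top2a at 0, and without them the median was -1.02.

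The list of late granule genes holds genes of secondary and gelatinase granules. Of 24 compared, 4 were at least 2-fold higher (31.3% of all genes), 4 lower (13.6% of all genes) and 16 within 2-fold, with a median of 0.03 that became -0.62 with equal medians. Ngp, encoding neutrophilic granule protein, differed by -0.33 and Lcn2, encoding lipocalin 2, by -0.14. Ltf, encoding lactoferrin, was at 618, 9337 and 21925 TPM against 49.6, 7010 and 17153 TPM, and the collagenase gene Mmp8 was 0.88 log2 units higher. The lowest Ltf on each side was in cells 52 and 80. Itgam, whose product CD11b defined the gate, was at 20.6, 176 and 780 TPM in positive cells and 6.13, 48 and 319 TPM in negative cells, a difference of 1.95. More than 100 TPM of Itgam were seen in 5 positive and 2 negative cells, and the ranges overlapped. Lyz2, encoding lysozyme, was 1.45 log2 units higher, with negative cells as low as 318 TPM. Ly6g, outside the TPM total, was above 0 in 1 of 6 positive and 3 of 9 negative cells, at 1687 in cell 96, 496 in cell 77, 98.8 in cell 59 and 8.2 in cell 69.

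The primary granule protease genes Elane and Prtn3 were high in single cells of both sides. Elane, encoding neutrophil elastase and a known GFI1 target, was at 3.81, 501 and 7821 TPM in positive cells and 1.64, 3.65 and 2973 TPM in negative cells. It exceeded 100 TPM in cells 52, 75 and 91 of the positive side and in cells 67 and 80 of the negative side. Prtn3, encoding proteinase 3, stood at 1683 TPM in cell 52, 1353 in cell 75, 1971 in cell 80, 711 in cell 69 and 447 in cell 67, and at no more than 2.32 TPM in the others. Mpo, encoding myeloperoxidase, was high in cell 52 alone, at 2774 TPM, with 53.9 TPM in cell 75 and under 7 TPM in every other cell. Cells 52 and 80, low in Ltf, were thus also the cells with the most Elane and Prtn3. Of 11 primary granule genes compared 4 were at least 2-fold higher, a share near the 31.3% of all genes, and 0 lower, against 13.6%, with a median of 0.76 that was -0.10 in cells matched on genes detected. Nkg7, a membrane protein of cytotoxic and myeloid granules, was 3.38 higher, and Serpinb1a, an inhibitor of granule proteases, 1.27 higher.

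The partners of GFI1 were seen in few cells. Of 18 genes listed 6 could be compared, with 4 at least 2-fold higher (31.3% of all genes), 0 lower (13.6%) and a median of 1.71. The scaffold gene Sin3a was 3.13 log2 units higher, at 0, 45.5 and 138 TPM against 0, 0 and 1.73 TPM, and was above 1 TPM in 3 cells of each side. The deacetylase genes Hdac3 and Hdac1 were 2.35 and 2.31 higher, though Hdac1 was -0.74 in cells matched on genes detected. Rcor3, a CoREST family member, was 1.12 higher and at -0.025 without cells 52 and 80. The median of this list stayed positive under the alternatives tried, from 0.54 to 2.61, beside medians over all genes of 0.05 to 0.55. The demethylase gene Kdm1a was above 0 in too few cells to be compared.

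Of 23 genes listed as GFI1 targets, 9 were at 0 in all 15 cells, Irf8 and Csf1r of the monocyte path among them, and 7 could be compared. Of these 5 were at least 2-fold higher and 0 lower, where 31.3% and 13.6% of all genes were, and the median was 1.62. Egr1, an immediate early zinc finger factor, was at 0 in cell 77 and from 40.6 TPM in cell 64 to 418 TPM in cell 52 in the other positive cells. In negative cells Egr1 was at 75.7 TPM in cell 68 and 88.3 in cell 96 and below 1 TPM in the rest, a log2 difference of 4.44. In Gran-2 and Mono its difference by Gfi1 was -2.37 and -1.76. Ets1, an ETS family factor, was 2.63 higher, at 0.09, 187 and 661 TPM against 0, 2.84 and 832 TPM. Id2 and Id1, inhibitors of E proteins, were 1.05 and 1.62 higher, with Id1 at -0.43 in cells matched on genes detected. Spi1, encoding the myeloid factor PU.1, was at -0.16. Without cell 52, the cell with the most genes detected, the list had 3 members higher, 0 lower and a median of 0.71, and without cells 59 and 96 it had 4 higher, 1 lower and a median of 1.23.

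Transcription factors of granulocytes differed in both directions, with 3 of 16 at least 2-fold higher (31.3% of all genes), 5 lower (13.6%) and a median of -0.16 that was 0.13 without cells 59 and 96. Myb, a factor of progenitors, was at 0, 0.065 and 7.49 TPM in positive cells and 0, 36.3 and 87.8 TPM in negative cells, a difference of -3.04. It was above 1 TPM in 1 of 6 and 6 of 9 cells. Nfe2l2, encoding the stress factor NRF2, was at -2.10. Fli1, an ETS factor, was at 39.1, 167 and 468 TPM against 0, 40.3 and 233 TPM, a difference of 2.41. Cebpe, which drives secondary granule genes, was at 1.15, 102 and 193 TPM against 0, 33.3 and 756 TPM, with its highest level in cell 59 and a log2 difference of 0.43.

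Genes of the cell cycle were detected on both sides. Of 21 DNA replication genes compared 11 were at least 2-fold higher (31.3% of all genes), 3 lower (13.6%) and 7 within 2-fold, with a median of 1.06 that was -0.58 as a ratio of mean TPM. Rrm2, a subunit of ribonucleotide reductase, was at 232, 734 and 1386 TPM in positive cells and 0, 80.7 and 1465 TPM in negative cells, a difference of 3.87, and Rfc2, of the clamp loader, was 3.95 higher. Pcna, the clamp that Rfc2 helps to load, went the opposite way at -4.18. It was at 138 TPM in cell 91, 3.2 in cell 81 and 0 in the other 4 positive cells, against 0, 68 and 1127 TPM in negative cells. Tk1, encoding thymidine kinase, was at -2.31. Among 29 mitosis genes 14 were at least 2-fold higher (31.3% of all genes) and 3 lower (13.6%), with a median of 0.74 that was -0.25 without cells 59 and 96. The centromeric histone gene Cenpa was 3.15 higher, Birc5 (survivin) 3.07 and Ccnb2 (cyclin B2) 2.36, while Prc1, a spindle midzone protein, was at -2.16. Ccnb2 was -0.26 as a ratio of mean TPM. Without cells 59 and 96 DNA replication had 4 genes higher and 4 lower, with a median of 0.35, and mitosis had 7 higher and 7 lower. In those 2 cells the proliferation genes Mki67 and Top2a were listed at 0, where a transcript may have been missed. Both genes were seen in other negative cells, where they reached 280 and 578 TPM.

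Of 48 ribosomal protein genes compared, 27 were at least 2-fold higher (31.3% of all genes) and 3 lower (13.6%), with a median of 1.29, and the whole list summed to 12789 to 38912 TPM in positive and 4998 to 31866 TPM in negative cells. After Rpl3, the highest differences were 4.10 for Rps2 and 3.56 for Rps20, both of the small subunit, and Rplp1 was the lowest. Without cells 59 and 96 the counts were 16 higher and 8 lower with a median of 0.41, where all genes had 0.17. In cells matched on genes detected they were 16 and 11 with a median of 0.37. As a ratio of mean TPM they were 7 and 5 with a median of 0.18, where all genes had 0.10. Only 6 of 19 ribosome biogenesis genes could be compared, with 2 higher and 1 lower, shares near the 31.3% and 13.6% of all genes. Their median of 0.13 was -0.20 without cells 59 and 96. Among them Npm1, encoding nucleophosmin, was 2.15 higher.

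Among 18 genes for chaperones and protein entry of the endoplasmic reticulum the mean was at least 2-fold lower for 7, where 13.6% of all genes were, higher for 2, against 31.3%, and within 2-fold for 9, and the list median of -0.40 turned to 0.06 at a Gfi1 threshold of 10 TPM, with 5 higher and 4 lower. Hspa5, encoding the chaperone BiP, was at 0, 0.76 and 352 TPM in positive cells and 0, 96.1 and 764 TPM in negative cells, a difference of -2.74. Hsp90b1, encoding GRP94, was at 0.17, 30.1 and 334 TPM against 2.04, 170 and 801 TPM, a difference of -2.47. Atf4, a factor of the unfolded protein and amino acid responses, was at -2.01. The ranges overlapped for each of these genes. Creld2 and P4hb, of disulfide bond formation, were the higher members, at 1.92 and 1.42.

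**Figure D4:**
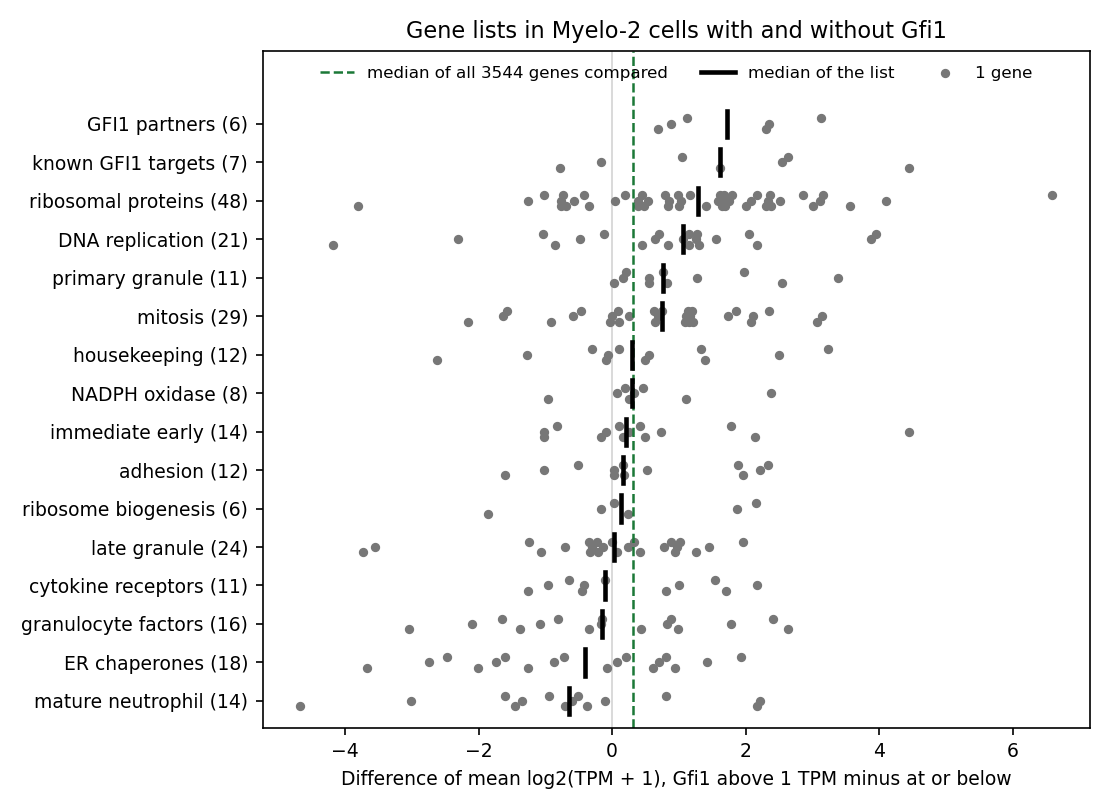
Differences of mean log2(TPM + 1), Gfi1-positive minus Gfi1-negative cells, for each gene of the 16 lists with at least 5 genes compared; the number compared is in parentheses, black bars are list medians and the dashed line is the median of all 3544 genes, 0.31. GFI1 partners and targets, ribosomal proteins and DNA replication have medians above 1, and mature neutrophil genes have the lowest median, -0.65.

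Housekeeping genes, taken as a control list, had 4 of 12 at least 2-fold higher and 2 lower, near the 31.3% and 13.6% of all genes, with a median of 0.30 that was -0.34 with equal medians. Their differences spread from -2.62 for Hprt, a purine salvage enzyme, to 3.24 for Polr2a, the largest subunit of RNA polymerase II. Eef1a1, a translation elongation factor, was at 386, 1094 and 4695 TPM against 48.1, 617 and 2132 TPM, a difference of 1.39. Tubb5, a tubulin, was 2.50 higher. Actb and Gapdh were at 0.11 and -0.09. Differences of several log2 units between these 2 small sets of cells were thus also present in the control list, and their cause was not tested.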

How the data were processed

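Single-cell transcriptomes of 92 mouse bone marrow cells were used. The authors deposited 1 table of log2 values, which on the linear scale are TPM plus 1, and 1 annotation of cell states; how states were called is not stated there. Bowtie2, RSEM and the mm9 build are named, without role or version, per the submitters' processing notes. The deposited TPM keep no read depth, so genes with TPM above 0 stand in for it, and Ly6g lies outside the TPM total.

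Members, gene lists and comparisons were chosen with earlier results of these data known. Genes seen above 0 in 5 or more of the 15 cells were compared by the difference of mean log2(TPM + 1); a pseudocount of 1 understates changes of low genes. Named genes were the 12 highest and 12 lowest differences, genes whose sides did not overlap, up to 4 members of each list with the largest absolute difference, and a fixed set of marker genes. In each gate 1 set of cells was captured, no animals are named, and cells are not replicates, so no p-value or standard error was computed, and a given SD is the spread of cells. All cells were kept, and doublets were not called. Columns of other samples numbered 0. Intervals on shares are exact 95% Clopper-Pearson intervals and cover counting error only. The alternatives tried were another Gfi1 threshold, pseudocount, filter or scaling, a ratio of mean TPM, cells matched on genes detected, and cells left out. Promoter sequences came from RefSeq (GRCm38.p6), not the authors' build. Scripts used Python 3.11.15, numpy 2.4.6, pandas 2.3.3 and scipy 1.17.1 and were tested on simulated data. In that test shifts were given only to genes above 0 in every cell, so recovery in sparsely detected genes was not tested.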

Additional observations from a re-analysis of the deposited data

Results flagged for a closer look

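Among the 9 Myelo-2 cells with Gfi1 at or below 1 TPM, cell 61 stood apart from the others, at 0.23 on the log2(TPM + 1) scale (0.17 TPM), while the other 8 cells were at 0. The gap to the nearest other cell was the whole range of that group, so any value above 0 would have been marked. The cell was at 3038 genes detected, and its Rpn2 level was 46.4 TPM. Counting it with the cells that had Gfi1 is the alternative threshold of 0 TPM described below.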

How the results depend on the processing

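Settings with 2 named cells left out were chosen after seeing the data. Of 3544 genes compared, 1110 were at least 2-fold higher in Gfi1-positive cells. The count became 614 of 3544 with a pseudocount of 10, 1827 of 8857 without a filter and 653 of 1986 with detection in at least 8 cells. The 482 lower genes became 188, 804 and 257 under the same settings, out of the same numbers compared. Of 3544 genes they became 902 as a ratio of mean TPM and 849 in 4 against 4 cells matched on genes detected. The 2 genes higher without overlap became 0 at a Gfi1 threshold of 0 TPM and with equal medians, 1 at 10 TPM (Zbtb44) and with detection in at least 8 cells, 4 without the cell highest in Gfi1 and without the cell with the most genes, and 5 without cells 52 and 80. In the matched cells, with only 4 cells on each side, they became 37 of 3544. The 0 lower genes became 33 of 3544 in the matched cells, and 1 at 0 TPM, without the cell highest in Gfi1 and without cells 59 and 96. The 4 lists with a median at least 2-fold higher became 0 with a pseudocount of 10, 1 in the matched cells, and 2 without a filter, with equal medians, as a ratio of means, without the cell with the fewest genes, without the cell with the most, and without cells 59 and 96. The 0 lists lower became 1 with detection in at least 8 cells, without the cell highest in Gfi1 and without cells 59 and 96. As a ratio of mean TPM the DNA replication median turned to -0.58, Ccnb2 to -0.26 and Csf2ra to -0.095. In the matched cells Hdac1 turned to -0.74, Id1 to -0.43, Klf6 to -0.31, Csf2rb to -0.24, Ncf1 to -0.18, Fosb to 0.38 and Ear2 to 2.37. Without cells 52 and 80, Rcor3 turned to -0.025. Fewer genes or cells enter some settings by construction; otherwise the cause was not tested. Of the share of 2-fold genes that were higher, 69.7% became 58.1% with equal medians, 54.2% as a ratio of means, 54.3% in the matched cells and 62.4% without cells 59 and 96. The difference in median genes detected, 216.5, ranged from 165.5 to 279.5, and the median over all genes, 0.31, from 0.05 to 0.55. No paired analysis was possible because the 2 sides are cells of 1 capture with no shared replicate numbers. Depth is unknown, and a gene at 0 may be a missed transcript.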

Other observations

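All 8 NADPH oxidase genes could be compared, with 2 at least 2-fold higher in Gfi1-positive cells (31.3% of all genes), 0 lower (13.6%) and a median of 0.29 that was -0.36 with equal medians. Hvcn1, the proton channel that supports the oxidase, was at 0.76, 204 and 1260 TPM (lowest, median and highest) in Gfi1-positive cells and 0, 41.9 and 1038 TPM in Gfi1-negative cells. Ncf1, the cytosolic subunit p47phox, was 1.10 log2 units higher and -0.18 in cells matched on genes detected. Among adhesion genes Cd44, a receptor for hyaluronan, was at 0, 270 and 568 TPM against 1.82, 8.81 and 148 TPM, a difference of 2.34, and Vcam1 was above 1 TPM in 2 cells of each side. The list had 4 of 12 higher and 2 lower, shares near those of all genes, and a median of 0.17, which was -0.27 with equal medians.

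Among cytokine receptors 3 of 11 were at least 2-fold higher (31.3% of all genes) and 1 lower (13.6%), with a median of -0.11 that was 0.68 at a Gfi1 threshold of 0 TPM. Csf2rb, the shared beta chain of the receptors for GM-CSF and related cytokines, was 1.71 higher, and Ifngr1, of the interferon gamma receptor, was at -1.25. The immediate early list had 3 of 14 higher (31.3% of all genes), 2 lower (13.6%) and a median of 0.21, which was -0.20 with equal medians; Egr1 and Zfp36, an RNA-binding protein, led it at 4.44 and 2.13, while Fos and Jun were at 0.11 and 0.50. Of 15 BCL2 family genes only Mcl1, a survival factor of neutrophils, could be compared, at 8.04, 28.3 and 253 TPM against 0, 0.2 and 202 TPM. Of 18 interferon response genes 11 were at 0 in all 15 cells, and Xaf1 was at 0.53.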
